A study of Rattus norvegicus with 8 samples.

Results

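Mitochondrial complex I is the NADH dehydrogenase of the respiratory chain, and its nuclear-encoded subunits carry gene names that begin with Nduf. Its genes were examined here in hearts of aged female rats after loss of the ovaries and after early or late estradiol replacement. A gene was counted as a member where the platform annotation gave a probe set exactly 1 symbol made of Ndufa, Ndufb, Ndufc, Ndufs or Ndufv and a number, or Ndufab1. Assembly factors (Ndufaf) were left out. The rule goes by name, so Ndufa4 and Ndufa4l2, which are not placed in complex I, count among the members and complex I genes throughout. The rule gave 36 genes of 14217 with a probe set of 1 symbol, each represented by its brightest probe set over all arrays, and all 36 passed the filter on dim probe sets described below. Ndufs5 and Ndufa10 share their probe sets with a second symbol and were not counted as members.

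The rats were 18 to 22 months old and of the strain given as Norway Brown. Per the design text they were assigned at random to 4 groups. Sham rats had the body cavity opened and closed and kept their ovaries. Ovariectomy rats lost the ovaries and received no hormone. Early estradiol rats were ovariectomised and received a pellet of 0.5 mg 17-β estradiol, released over 90 days, at the same operation. Late estradiol rats were ovariectomised and received the same pellet 9 weeks later. Total RNA of whole hearts was hybridised to 8 Affymetrix expression arrays, 2 per group, and each array held equal amounts of RNA from 3 hearts. The spread between the arrays of a group is therefore a spread between pools, in which single animals are averaged. The p-values rest on that spread alone, taken partly from the probe set itself and partly from other probe sets of similar signal. No label states the time from surgery to tissue collection or the hormone levels reached. In whole-heart RNA, fewer cells of a type and less RNA per cell cannot be told apart.

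Complex I takes electrons from NADH to ubiquinone and uses the energy to pump protons out of the mitochondrial matrix. Its matrix arm holds the NADH-binding N module and the quinone-binding Q module, and its membrane arm holds the proton pumps, which are encoded by mitochondrial DNA. Around these core subunits sit many accessory subunits that stabilise or assemble the enzyme. The heart depends on it for most of its ATP supply, since cardiomyocytes are packed with mitochondria and oxidise mainly fatty acids.

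Some of the members hold the same letters near their transcription starts, which the rule for choosing them did not use. RefSeq windows of the assembly GRCr8, from 250 bases before to 50 after the annotated start, were given for 34 of the 36 genes. The sequence AAGATGGCG, a form of the motif of the zinc finger factor YY1, was found on either strand in 7 of 34 (20.6%), against 1.73% of all 33469 such windows and 2.07% of the 21842 of protein-coding genes. All 7 matches lay on the strand of the gene, with their first base 5 to 27 bases after the start, and none overlapped another motif searched. The match holds ATG, the letters of a start codon. Whether it lies at the start of the coding sequence in these genes was not tested. Windows of 30 bases are shown for these 7 because, of the motifs searched, this one stood furthest above its share of all windows. Coordinates are of GRCr8, and capitals mark the match.
Ndufa2 (chr18:28631839-28631868, minus strand): tttgctagcaAAGATGGCGgccgcaagccg
Ndufa6 (chr7:115750283-115750312, minus strand): cttccttagcAAGATGGCGgccgcggccag
Ndufa9 (chr4:161374141-161374170, minus strand): attgtgggagAAGATGGCGgccgccgtccg
Ndufb8 (chr1:253362896-253362925, minus strand): ggagaaggtgAAGATGGCGgcgtcccgggc
Ndufs4 (chr2:47794891-47794920, minus strand): tgcccacaggAAGATGGCGgcggtctcaat
Ndufs6 (chr1:31797413-31797442, plus strand): ggtcgtcggcAAGATGGCGgcggcgctgac
Ndufs7 (chr7:10110475-10110504, minus strand): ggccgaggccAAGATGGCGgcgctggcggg

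In all 8 motifs were searched on both strands. The NRF1 motif GCGCANGCG, of nuclear respiratory factor 1, was found in 8 of 34 (23.5%, against 5.8% of all windows and 7.62% of those of protein-coding genes), and the ETS motif CCGGAAG, bound by GABPA, in 7 of 34 (20.6%, against 8.75% of all windows and 10.7% of those of protein-coding genes). The SP1 motif GGGCGG was found in 16 of 34 (47.1%, against 33.1% of all windows and 41.8% of those of protein-coding genes), CCAAT in 11 of 34 (32.4%, against 37.5% of all windows and 38% of those of protein-coding genes) and TATAAA in 3 of 34 (8.82%, against 14.2% of all windows and 13% of those of protein-coding genes). The estrogen-related receptor motif TCAAGGTCA and the palindromic estrogen response element, GGTCA and TGACC with 3 bases between, were found in 0 of 34, against 0.433% and 0.0269% of all windows. A match is only a run of letters, and the absence of one says only that these letters are not in this window. Of the 7 genes with the YY1 letters, all 7 had a difference below 0 for ovariectomy against sham, from -0.41 for Ndufb8 to -0.0014 for Ndufs6, and 6 of 7 for early estradiol against sham, comparisons in which most other members also lay lower. For late estradiol against ovariectomy the 7 ran from -0.27 for Ndufb8 to 0.55 for Ndufs4. Whether they differ from the other members was not tested.

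All values below are log2 signals of a probe set after quantile normalization, so that 1 unit is a 2-fold difference. The level of 1 probe set cannot be set against that of another, since probes differ in how well they bind. The deposited arrays differed in brightness by replicate number more than by group, with trimmed mean signals of 28.2 to 70.0 in replicate 1 and of 104.2 to 137.5 in replicate 2, and late estradiol replicate 1 was the dimmest. The 15 measured cardiomyocyte markers had array medians from -0.08 to 0.06 around each gene's mean, which on normalized values does not measure the muscle content. Single markers varied more, and Tcap, a sarcomere protein, stood at -0.49 ± 0.14 for ovariectomy against sham and 0.41 ± 0.14 for late estradiol against ovariectomy, while Ryr2, the calcium release channel, stood at -0.41 ± 0.19 in the first. None of these passed, and their part in the complex I values was not tested. By limma, 0 of 18625 probe sets differed among the 4 groups by the moderated F test (0%) at a Benjamini-Hochberg adjusted p under 0.05, and 0 of 36 members did. At an unadjusted p under 0.05 the F test gave 0 of 36 members and 1.86% of all probe sets. The members of smallest F test p were Ndufv1, Ndufs4, Ndufa4l2, Ndufb8 and Ndufb2, each with a limma adjusted p of 1.

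Complex I genes varied little between arrays. The difference between the highest and the lowest of 8 arrays had a median of 0.41 over the members and was under 0.5 for 27 of 36, from 0.15 for Ndufb5 up to 2.06 for Ndufa4l2. The 9 members at 0.5 or above were Ndufa11, Ndufa4l2, Ndufa5, Ndufa6, Ndufb8, Ndufs1, Ndufs4, Ndufv1 and Ndufv3. The residual SD between arrays of a group had a median of 0.134 over the members, against 0.395 over all 18625 probe sets, where many are dim. The 33 members with a mean of at least 10 had a median of 0.119, beside 0.163 for all 584 probe sets at that level. For the 40 tested subunits of complexes II to V it was 0.115.

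**Figure D1:**
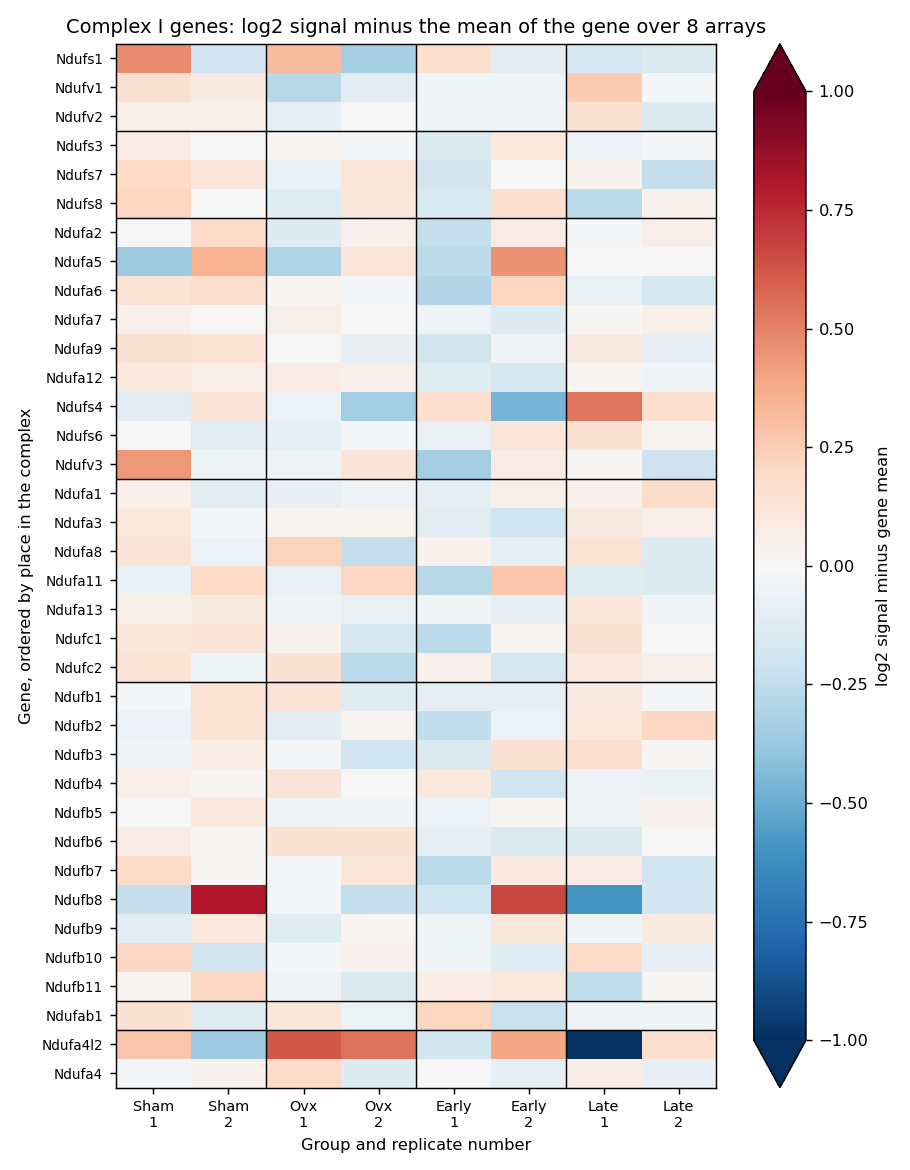
Log2 signal of the 36 complex I genes on 8 arrays (columns, 2 per group), as the difference from each gene's mean over the arrays (colour, from -1 to 1), with lines between the N core, Q core, matrix arm, proximal and distal membrane arm, Ndufab1 and the 2 genes Ndufa4l2 and Ndufa4. Most cells are pale, and the strongest colours belong to Ndufb8, Ndufs4, Ndufs1 and Ndufa4l2, where they often differ between the arrays of a group.

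**Figure D2:**
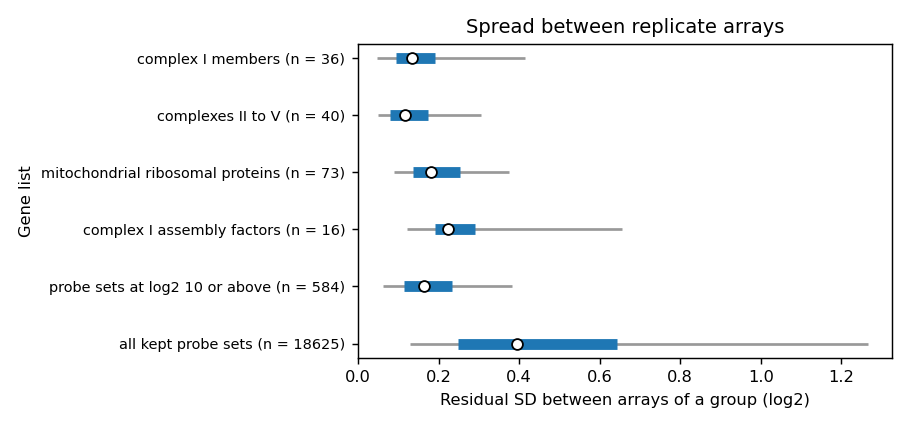
Residual SD between arrays of a group, on the log2 scale, for lists of genes and for all tested probe sets (circle, median; thick bar, quartiles; thin bar, percentiles 5 to 95). The median of 0.134 for complex I lies near that of complexes II to V and below that of all probe sets.

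The 3 N module core subunits carry NADH oxidation. Ndufv1, which binds NADH and the flavin cofactor, measured 11.09 and 11.03 in sham, 10.66 and 10.83 after ovariectomy, 10.89 and 10.89 with early estradiol, and 11.20 and 10.93 with late estradiol. Both ovariectomy arrays lay below all 6 others, and the early estradiol arrays lay between ovariectomy and sham. The difference was -0.32 ± 0.15 (limma standard error) for ovariectomy against sham and 0.32 ± 0.15 for late estradiol against ovariectomy, with limma adjusted p of 1 and 0.943, so that neither passed. The second value depends on the scaling and was -0.02 without between-array normalization, where the median of all probe sets was -0.31. Ndufv2, which holds an iron-sulfur cluster of the N module, measured 11.88 and 11.89 in sham, 11.73 and 11.82 after ovariectomy, 11.79 and 11.80 with early estradiol, and 11.98 and 11.69 with late estradiol. It lay lower on both ovariectomy arrays than on both sham arrays, by -0.11 ± 0.14, and overlapped in all comparisons with late estradiol. Ndufs1, the largest subunit and the holder of several iron-sulfur clusters, measured 11.74 and 11.08 in sham, 11.58 and 10.93 after ovariectomy, 11.43 and 11.15 with early estradiol, and 11.09 and 11.12 with late estradiol. Its replicate 1 arrays lay above its replicate 2 arrays in sham, ovariectomy and early estradiol, and the sham and ovariectomy arrays overlapped. Between arrays of the same number, ovariectomy against sham gave -0.16 in replicate 1 and -0.14 in replicate 2, and with the replicate number as a block its limma adjusted p was 1. Statements on overlap take no account of the replicate number. Both late arrays lay just below both early arrays.

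The 3 Q module core subunits analysed pass electrons on to ubiquinone, and none passed the test in any comparison. Ndufs3, a scaffold subunit that enters assembly early, measured 11.16 and 11.08 in sham, 11.11 and 11.05 after ovariectomy, 10.94 and 11.18 with early estradiol, and 11.02 and 11.07 with late estradiol, a range of 0.24 over all 8 arrays. Ndufs7, which holds the cluster next to the quinone site, measured 11.30 and 11.22 in sham, 11.04 and 11.22 after ovariectomy, 10.92 and 11.11 with early estradiol, and 11.14 and 10.87 with late estradiol. Ndufs7 lay lower on both early and both late estradiol arrays than on both sham arrays, by -0.25 ± 0.16 and -0.26 ± 0.16, comparisons that share the sham arrays, and with limma adjusted p of 1 and 0.997 neither passed. Ndufs8, which holds a pair of iron-sulfur clusters, measured 10.71 and 10.50 in sham, 10.38 and 10.61 after ovariectomy, 10.35 and 10.66 with early estradiol, and 10.23 and 10.54 with late estradiol, and its groups overlapped in all 6 comparisons. Against ovariectomy, Ndufs3, Ndufs7 and Ndufs8 differed by -0.02 ± 0.14, -0.11 ± 0.16 and 0.01 ± 0.18 with early estradiol and by -0.04 ± 0.14, -0.13 ± 0.16 and -0.11 ± 0.18 with late estradiol.

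Among the 9 accessory subunits of the matrix arm, Ndufs4 had the smallest F test p. Ndufs4 stabilises the N module, and its loss causes Leigh syndrome in humans. It measured 8.40 and 8.64 in sham, 8.45 and 8.16 after ovariectomy, 8.68 and 8.04 with early estradiol, and 9.04 and 8.67 with late estradiol, with both late estradiol arrays above every sham and ovariectomy array and 1 early array just above the lower late array. Late against ovariectomy it stood at 0.55 ± 0.25 (95% interval -0.02 to 1.11, limma adjusted p = 0.943), and late against early at 0.49 ± 0.25, which turned to -0.11 without between-array normalization. Ndufa12, a subunit that takes the place of an assembly factor in the finished enzyme, measured 12.25 and 12.22 in sham, 12.23 and 12.20 after ovariectomy, 12.03 and 11.99 with early estradiol, and 12.18 and 12.11 with late estradiol. Both early arrays lay below all other arrays, and its residual SD of 0.0306 was the smallest of the members. Ndufa9, at the junction of matrix and membrane arm, measured 11.58 and 11.56 in sham, 11.42 and 11.34 after ovariectomy, 11.24 and 11.39 with early estradiol, and 11.51 and 11.34 with late estradiol. Both sham arrays lay above all other arrays, and the differences from sham were -0.19 ± 0.14 after ovariectomy and -0.25 ± 0.14 with early estradiol.

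The same direction held in part for Ndufa6, a protein of the LYR family that binds the acyl carrier protein. It measured 11.69 and 11.73 in sham, 11.57 and 11.54 after ovariectomy, 11.26 and 11.77 with early estradiol, and 11.49 and 11.38 with late estradiol, and both ovariectomy and both late estradiol arrays lay below both sham arrays. Ndufv3, a peripheral subunit, measured 11.81 and 11.34 in sham, 11.33 and 11.51 after ovariectomy, 11.03 and 11.46 with early estradiol, and 11.39 and 11.17 with late estradiol, with 1 high sham array, and its groups overlapped in all 6 comparisons. Ndufa5, of the Q module, was high on replicate 2 in sham, ovariectomy and early estradiol, at 11.26, 11.03 and 11.36, against 10.55, 10.61 and 10.65 on replicate 1. Ndufs6, a zinc-binding subunit needed to attach the N module, lay higher on both late arrays (12.07 and 11.95) than on both ovariectomy arrays (11.84 and 11.90). Ndufa2 and Ndufa7 stayed within 0.42 and 0.19 over all arrays. Second, dim probe sets existed for Ndufv3, Ndufa9 and Ndufa7, at means of 4.79, 5.65 and 5.10. That of Ndufv3 went the other way in 5 of 6 comparisons, as with early estradiol against ovariectomy (0.97 against -0.17), and that of Ndufa9 in 3.

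The 7 accessory subunits of the proximal membrane arm moved little. Ndufa3, a small membrane subunit, measured 11.58 and 11.46 in sham, 11.50 and 11.50 after ovariectomy, 11.37 and 11.28 with early estradiol, and 11.56 and 11.54 with late estradiol, so that both early arrays lay below and both late arrays above both ovariectomy arrays. The differences were -0.18 ± 0.13 for early estradiol against ovariectomy, 0.05 ± 0.13 for late against ovariectomy and 0.23 ± 0.13 for late against early, and none passed (limma adjusted p = 1, 0.984 and 0.987). Ndufa13, also known as GRIM-19, and Ndufc1 lay below both sham arrays on both ovariectomy and both early estradiol arrays. Ndufc1 measured 11.26 and 11.27 in sham, 11.17 and 10.97 after ovariectomy, 10.87 and 11.17 with early estradiol, and 11.28 and 11.14 with late estradiol, and Ndufa13 stayed within a range of 0.20. Ndufa1, encoded on the X chromosome in mammals, was higher on both late arrays (12.36 and 12.50) than on both ovariectomy arrays (12.23 and 12.26). Ndufa11, a subunit at the contact with complex III in supercomplexes, was lower on both late arrays (10.22 and 10.20) than on both ovariectomy arrays (10.26 and 10.54), by -0.19 ± 0.21. Ndufa8, of the intermembrane space side, and Ndufc2 overlapped in all 6 comparisons.

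The 11 subunits of the distal membrane arm, all named Ndufb, held the member of the widest spread within the complex. Ndufb8 measured 8.54 and 9.58 in sham, 8.77 and 8.54 after ovariectomy, 8.58 and 9.44 with early estradiol, and 8.18 and 8.59 with late estradiol. The replicate 2 arrays of sham and early estradiol stood apart from the other 6, and no pair of groups was free of overlap. It differed by -0.67 ± 0.36 for late estradiol against sham and by -0.63 ± 0.36 for late against early, with limma adjusted p of 0.997 and 0.987. Ndufb2 measured 11.08 and 11.28 in sham, 11.03 and 11.17 after ovariectomy, 10.90 and 11.08 with early estradiol, and 11.25 and 11.35 with late estradiol, with both late arrays above all ovariectomy and early arrays. The difference was 0.31 ± 0.15 for late against early (limma adjusted p = 0.987), and -0.17 without between-array normalization, where the median of all probe sets was -0.47. Ndufb6 measured 11.19 and 11.12 in sham, 11.25 and 11.25 after ovariectomy, 11.01 and 10.96 with early estradiol, and 10.97 and 11.11 with late estradiol, so that the ovariectomy arrays lay above all 6 others. It differed by -0.27 ± 0.14 for early estradiol against ovariectomy and by -0.21 ± 0.14 for late against ovariectomy (limma adjusted p = 1 and 0.943).

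Ndufb11, another X-encoded subunit, measured 11.90 and 12.07 in sham, 11.83 and 11.73 after ovariectomy, 11.94 and 11.97 with early estradiol, and 11.63 and 11.88 with late estradiol, with both ovariectomy arrays below both sham and both early estradiol arrays. Its difference from sham was -0.21 ± 0.14 after ovariectomy and -0.23 ± 0.14 with late estradiol. Ndufb1, Ndufb3, Ndufb4, Ndufb5, Ndufb7, Ndufb9 and Ndufb10 ranged over 0.15 to 0.46 across the 8 arrays. Of these, Ndufb3 was higher on both late than on both ovariectomy arrays and Ndufb4 lower. Ndufb10 was lower on both early than on both ovariectomy arrays. Ndufb5 was lower on both ovariectomy than on both sham arrays. Ndufb7 and Ndufb9, the latter a LYR protein like Ndufa6, overlapped in all 6 comparisons.

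Ndufab1, the mitochondrial acyl carrier protein, which serves both complex I and fatty acid synthesis in the mitochondrion, measured 11.82 and 11.55 in sham, 11.78 and 11.61 after ovariectomy, 11.89 and 11.45 with early estradiol, and 11.64 and 11.64 with late estradiol and overlapped throughout. Ndufa4, now counted as a subunit of complex IV, measured 12.12 and 12.18 in sham, 12.32 and 12.01 after ovariectomy, 12.14 and 12.04 with early estradiol, and 12.21 and 12.05 with late estradiol and also overlapped throughout. Ndufa4l2, a relative of Ndufa4 that the hypoxia-inducible factor HIF-1 is known to raise, is likewise not placed in complex I. It was the dimmest member. It measured 5.85 and 5.21 in sham, 6.19 and 6.12 after ovariectomy, 5.39 and 5.96 with early estradiol, and 4.13 and 5.73 with late estradiol. Both ovariectomy arrays lay above all 6 others, while the late arrays differed from each other by far more than any other pair. The late against ovariectomy difference of -1.23 ± 0.52 (95% interval -2.39 to -0.06) was the only one of the members with a limma unadjusted p under 0.05, at 0.0411, and its adjusted p was 0.943. Without late estradiol replicate 1, the dimmest array, it was -0.43, and without late replicate 2 it was -2.03 (limma adjusted p = 0.127).

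**Figure D3:**
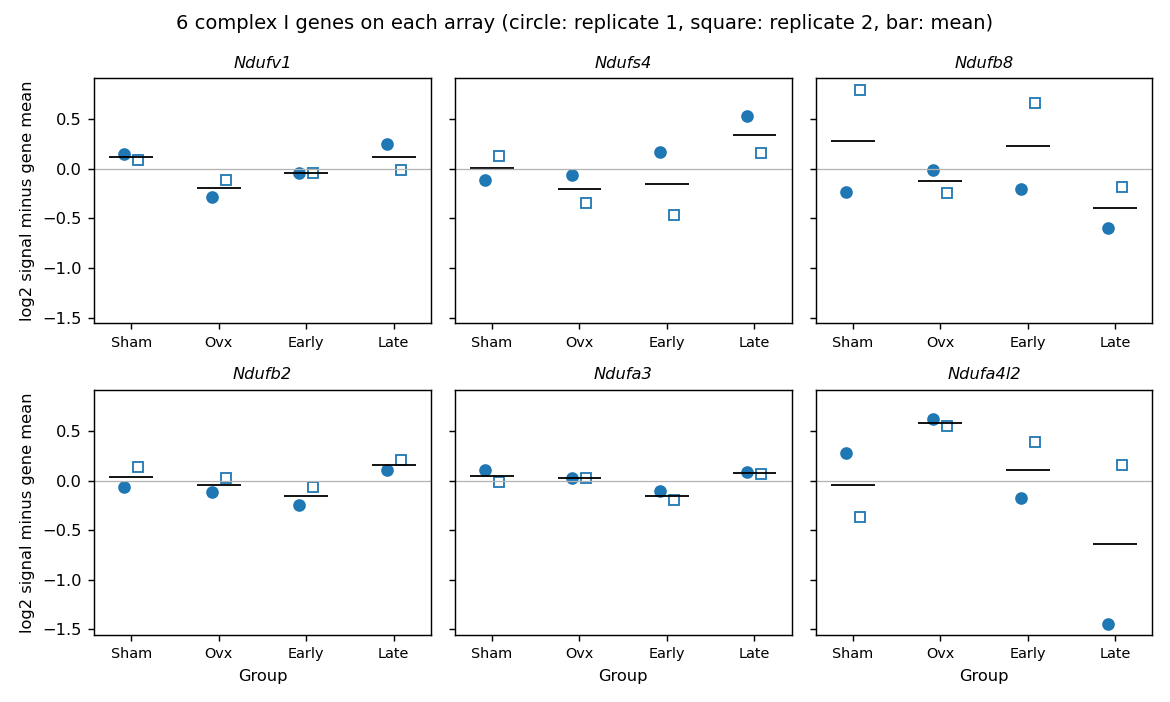
Log2 signal of 6 members on each array (vertical axis, difference from the gene's mean over 8 arrays) by group (horizontal axis). Of these, Ndufa4l2 is not placed in complex I. Replicate 1 is drawn as filled circles, replicate 2 as open squares and the group mean as a bar. Ndufv1, Ndufb2 and Ndufa3 span smaller ranges (0.54, 0.45 and 0.30) than Ndufb8 and Ndufa4l2 (1.40 and 2.06). Ndufb8 and Ndufa4l2 differ between the arrays of a group by as much as between groups.

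Ovariectomy against sham addressed the effect of removing the ovaries in old age. Complex I transcripts lay slightly lower, with a median difference of -0.08 over 36 members, 29 of them lower and 7 higher. All probe sets together had a median of -0.03, with 53.3% lower and 46.7% higher. Both ovariectomy arrays lay below both sham arrays for 8 members, or 22.2%, against 14.1% of all probe sets, and above them for 2, against 11.0%. The 8 were Ndufv1, Ndufv2, Ndufa6, Ndufa9, Ndufa13, Ndufb5, Ndufb11 and Ndufc1, and the 2 higher were Ndufb6 and Ndufa4l2. The N core, Q core and matrix arm accessory medians were -0.15, -0.11 and -0.13, and those of the proximal and distal membrane arm -0.05 and -0.05. The direction relative to all probe sets depends on the scaling. With each array centred on its median, the members had a median of -0.02 and all probe sets one of -0.04, and without between-array normalization -0.29 against -0.31.

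By limma 0 of 36 members passed for ovariectomy against sham (0% of all probe sets, Benjamini-Hochberg), and 0 had an unadjusted p under 0.05, against 1.47% of all probe sets. The members of smallest p were Ndufv1 at -0.32 ± 0.15, Ndufb11 at -0.21 ± 0.14, Ndufa9 at -0.19 ± 0.14, Ndufc1 at -0.19 ± 0.16 and Ndufa4l2 at 0.63 ± 0.52. Ndufs1, Ndufs3, Ndufs7 and Ndufs8 differed by -0.15 ± 0.25, -0.04 ± 0.14, -0.13 ± 0.16 and -0.11 ± 0.18. The 95% interval lay wholly within 2-fold for 34 members, with Ndufa4l2 and Ndufb8 as the exceptions, and within 1.5-fold for 29. With the replicate number as a block, Ndufv1 had a limma unadjusted p of 0.0406 and an adjusted p of 1.

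**Figure D4:**
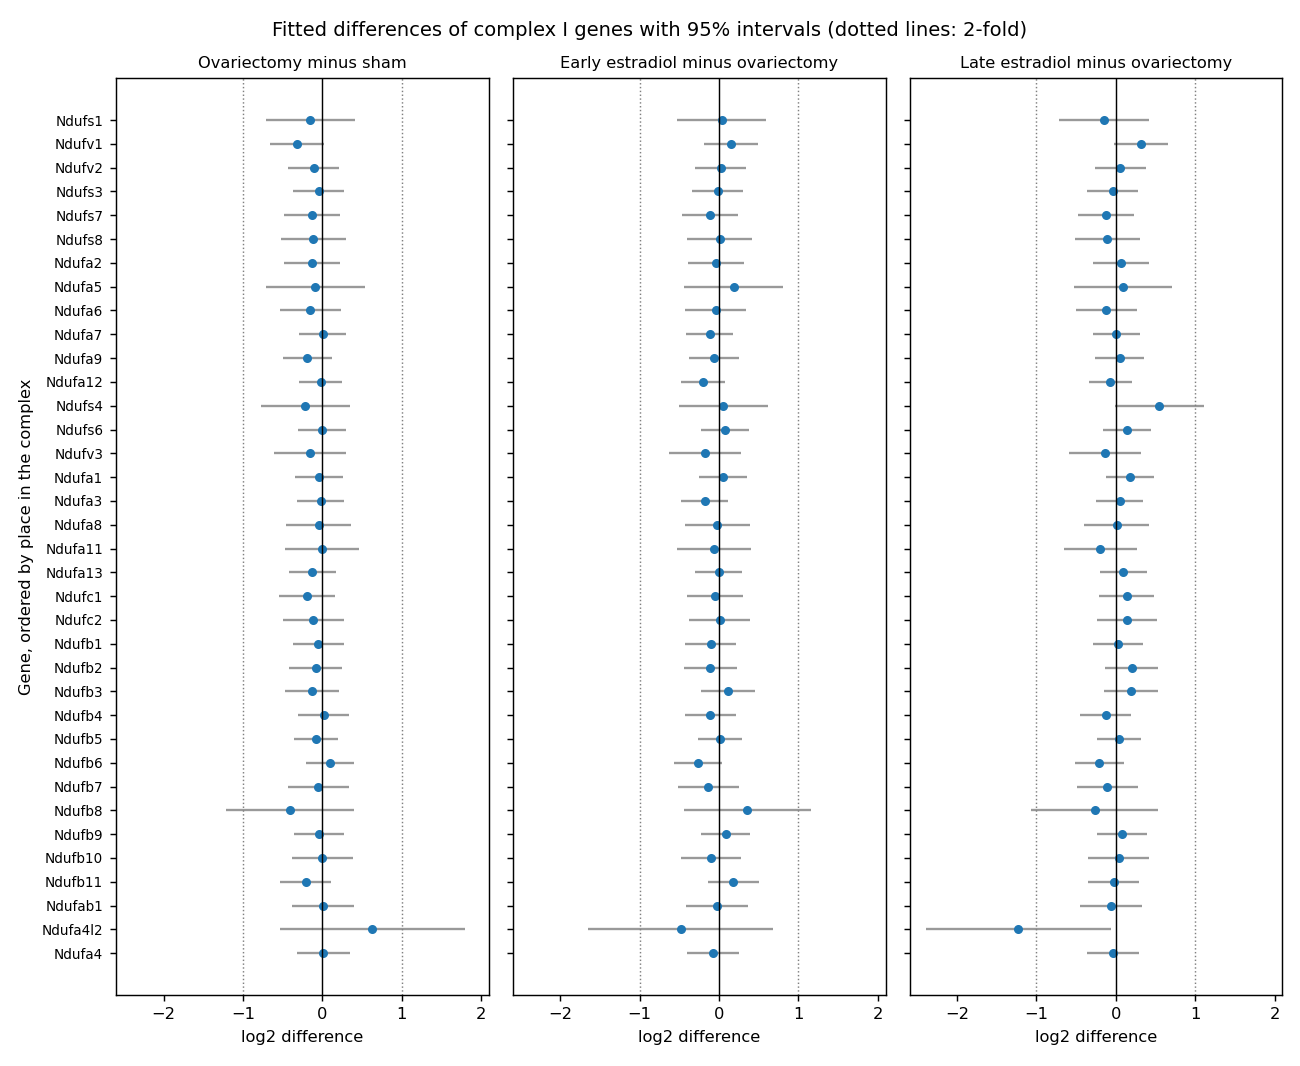
Fitted log2 differences of the 36 complex I genes (points, horizontal axis) with 95% intervals (bars) for ovariectomy against sham, early estradiol against ovariectomy and late estradiol against ovariectomy, 8 arrays in all. Nearly all intervals cross 0 and stay between the dotted lines at 2-fold, and that of Ndufa4l2 for late estradiol ends below 0 before adjustment for multiple tests.

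Early estradiol against ovariectomy addressed replacement that began on the day of surgery. The members had a median difference of -0.03, with 22 of 36 lower, against a median of 0.02 and 47.1% lower and 52.9% higher over all probe sets. Arrays of replicate 1 gave a median of -0.12 and those of replicate 2 one of 0.04. Both early arrays lay below both ovariectomy arrays for 6 members, or 16.7% (Ndufa3, Ndufa7, Ndufa12, Ndufb6, Ndufb10 and Ndufa4l2), against 12.3% of all probe sets, and above them for 2 (Ndufv1 and Ndufb11), against 14.7%. Smallest in p were Ndufb6 at -0.27 ± 0.14, Ndufa12 at -0.20 ± 0.12, Ndufa3 at -0.18 ± 0.13, Ndufb11 at 0.18 ± 0.14 and Ndufv1 at 0.15 ± 0.15. By limma 0 of 36 passed (0% of all probe sets) and 0 had an unadjusted p under 0.05, against 1.71%. Intervals lay within 2-fold for 34 members and within 1.5-fold for 30. Ndufv2 and Ndufs1 differed by 0.02 ± 0.14 and 0.03 ± 0.25.

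Late estradiol against ovariectomy addressed replacement delayed by 9 weeks. The members had a median difference of 0.02, with 16 of 36 lower, beside 0.01 and 48.8% lower and 51.2% higher over all probe sets, so that the members lay on both sides. Both late arrays lay above both ovariectomy arrays for 7 members, or 19.4% (Ndufv1, Ndufs4, Ndufs6, Ndufa1, Ndufa3, Ndufb2 and Ndufb3), against 15.7% of all probe sets, and below them for 6 (Ndufa6, Ndufa11, Ndufa12, Ndufb4, Ndufb6 and Ndufa4l2), against 13.4%. The members of smallest p were Ndufa4l2 at -1.23 ± 0.52, Ndufs4 at 0.55 ± 0.25, Ndufv1 at 0.32 ± 0.15, Ndufb6 at -0.21 ± 0.14 and Ndufb2 at 0.20 ± 0.15. By limma 0 passed (0% of all probe sets), and 1 of 36, Ndufa4l2, had an unadjusted p under 0.05, against 4.36%. Intervals lay within 2-fold for 33 members, with Ndufa4l2, Ndufb8 and Ndufs4 as the exceptions. Ndufv2 and Ndufs1 differed by 0.06 ± 0.14 and -0.15 ± 0.25. This comparison shares the ovariectomy arrays with the previous one.

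Late against early estradiol compared the 2 start times. The length of hormone exposure may differ between these groups too, since the time of tissue collection is not stated. It cannot be told apart from the delay. The member median was 0.04, with 13 of 36 lower, against -0.01 and 50.7% lower and 49.3% higher over all probe sets, with 0.15 from the replicate 1 arrays and -0.03 from those of replicate 2. Both late arrays lay above both early arrays for 6 members, or 16.7% (Ndufv1, Ndufa3, Ndufa7, Ndufa12, Ndufb1 and Ndufb2), against 15.5% of all probe sets, and below them for 2 (Ndufs1 and Ndufb11), against 16.3%. By p, the leading members were Ndufb2 at 0.31 ± 0.15, Ndufs4 at 0.49 ± 0.25, Ndufb8 at -0.63 ± 0.36, Ndufa3 at 0.23 ± 0.13 and Ndufa4l2 at -0.75 ± 0.52. By limma 0 of 36 passed (0% of all probe sets), and 0 had an unadjusted p under 0.05, against 3.87%. The probe set shared by Ndufa10 and Ndufa10l1, not among the 36, stood at 0.67. Its limma unadjusted p was 0.0155 and its adjusted p 0.987. The shared probe set of Ndufs5 stood at 0.02. Without late replicate 1 the Ndufa4l2 difference was 0.05.

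The comparisons of both estradiol groups with sham share the sham arrays with each other and with the first comparison. With early estradiol 31 of 36 members lay lower than in sham, with a median of -0.10, or -6.89%, and a lowest value of -0.33 for Ndufv3. All probe sets had a median of 0.00, with 50.1% lower and 49.9% higher. Both early arrays lay below both sham arrays for 11 members (30.6%), against 12.7% of all probe sets, and above them for 0, against 12.1%. The 11 were Ndufv1, Ndufv2, Ndufs7, Ndufa7, Ndufa9, Ndufa12, Ndufa3, Ndufa13, Ndufc1, Ndufb1 and Ndufb6, from every arm of the complex. The members of smallest p were Ndufa9 at -0.25 ± 0.14, Ndufa12 at -0.22 ± 0.12, Ndufv3 at -0.33 ± 0.20, Ndufs7 at -0.25 ± 0.16 and Ndufc1 at -0.24 ± 0.16. Ndufv3 turned to 0.28 as the mean of its probe sets. The member median stayed below that of all probe sets with arrays centred on their median (-0.08 against -0.01) and without between-array normalization (-0.20 against -0.14). By limma 0 of 36 passed (0% of all probe sets) and 0 had an unadjusted p under 0.05, against 0.773%.

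With late estradiol the median against sham was -0.05, with 25 of 36 members lower, beside -0.02 and 51.9% lower and 48.1% higher over all probe sets. Centred arrays gave 0.01. Both late arrays lay below both sham arrays for 9 members, or 25% (Ndufs3, Ndufs7, Ndufa6, Ndufa9, Ndufa11, Ndufa12, Ndufb4, Ndufb6 and Ndufb11), against 16.1% of all probe sets, and above them for 2 (Ndufs4 and Ndufs6), against 14.5%. By p, Ndufb8 led at -0.67 ± 0.36, followed by Ndufs7 at -0.26 ± 0.16, Ndufb11 at -0.23 ± 0.14, Ndufa6 at -0.27 ± 0.17 and Ndufv3 at -0.29 ± 0.20. By limma 0 of 36 passed (0% of all probe sets) and 0 had an unadjusted p under 0.05, against 3.37%.

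The assembly factors, which build the complex and leave it, lay lower in most cases with early estradiol, though none passed. Of 16 measured, 15 lay lower than in sham, with a median of -0.34, and both early arrays lay below both sham arrays for 10, against 12.7% of all probe sets. Early estradiol against ovariectomy left 14 of 16 lower (median -0.24), and late against early the median was 0.27, with 13 of 16 higher. Without between-array normalization the median of all probe sets for late against early was -0.47. No value for the assembly factors is given under that scaling. Acad9, an acyl-CoA dehydrogenase relative that serves assembly, measured 7.32 and 7.41 in sham, 7.73 and 7.56 after ovariectomy, 7.27 and 7.13 with early estradiol, and 7.75 and 7.70 with late estradiol. Both early arrays were the lowest of the 8, and the late against early difference was 0.52 ± 0.21. Ecsit, another assembly factor, measured 9.09 and 8.84 in sham, 8.99 and 8.92 after ovariectomy, 8.60 and 8.66 with early estradiol, and 9.12 and 8.65 with late estradiol. Ndufaf7, a mitochondrial methyltransferase, measured 6.92 and 6.76 in sham, 6.28 and 6.33 after ovariectomy, 6.08 and 6.41 with early estradiol, and 6.71 and 6.61 with late estradiol, with both sham arrays above all others and a difference of -0.60 ± 0.27 for early estradiol against sham. Ndufaf5, a hydroxylase of Ndufs7 in human cells, stood at 1.22 ± 0.40 for late against early. Its limma unadjusted p was 0.013 and its adjusted p 0.987. Ndufaf5 and Acad9 were the 2 of 16 with an unadjusted p under 0.05 in that comparison, against 3.87% of all probe sets. Of the 16, 0 passed in any of the 6 comparisons.

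Iron-sulfur cluster assembly supplies the clusters of the core subunits. Of its 13 measured genes, 12 passed the filter on dim probe sets. The 12 had medians of 0.04 for ovariectomy against sham, -0.12 for early estradiol against ovariectomy and -0.12 for late against ovariectomy. By limma 0 passed, and 9 and 9 of 12 lay lower in the last 2 comparisons. Lyrm4, a partner of the cysteine desulfurase, stood at -0.42 ± 0.27 and -0.46 ± 0.27 in these, and Isca1, an iron-sulfur carrier, at -0.29 ± 0.20 for late against ovariectomy. Fdx1, of the same list, went the other way at 0.30 ± 0.21 for early estradiol against ovariectomy. Of 15 measured regulators of mitochondrial genes, 14 passed the filter, and Ppara did not. The 14 had medians of -0.13, -0.05 and -0.08, and by limma 0 passed. Ppargc1a, the coactivator PGC-1α, measured 8.16 and 8.25 in sham, 8.40 and 7.70 after ovariectomy, 8.44 and 7.91 with early estradiol, and 8.88 and 8.52 with late estradiol. Both late arrays lay above all 6 others, with 0.66 ± 0.28 against ovariectomy (limma adjusted p = 0.943). Esrra, the nuclear receptor ERRα, Tfam, a transcription factor that also packs mitochondrial DNA, and Gabpa, an ETS factor, stood at -0.30 ± 0.32, 0.20 ± 0.21 and -0.11 ± 0.41 in the same comparison. Nrf1 was dim and stood at -1.33 ± 0.82. Esrrb, a relative of Esrra, measured 6.87 and 6.31 in sham, 6.45 and 6.47 after ovariectomy, 6.04 and 6.26 with early estradiol, and 5.88 and 5.87 with late estradiol, with both late arrays below all 6 others and -0.59 ± 0.30 against ovariectomy.

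The rest of the respiratory chain gave medians near those of complex I. Of 42 measured subunits of complexes II to V, 40 passed the filter on dim probe sets. The 40 had medians of -0.05, -0.02 and -0.02 in the 3 comparisons with ovariectomy, beside -0.08, -0.03 and 0.02 for complex I. Early estradiol against sham gave -0.05 with 33 of 40 lower, beside -0.10 with 31 of 36, and for the 73 mitochondrial ribosomal proteins it gave -0.15 with 63 lower. A difference between these lists was not tested. By array, the complex I median around each gene's mean was 0.07 and 0.07 in sham, -0.02 and -0.02 after ovariectomy, -0.10 and -0.01 with early estradiol, and 0.03 and -0.01 with late estradiol. Both sham arrays were the highest of the 8 and early replicate 1 the lowest.

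Markers of other cells of the heart moved more than complex I did. The median of the 12 fibroblast markers was 0.02 and -0.06 in sham, 0.15 and 0.45 after ovariectomy, 0.26 and 0.08 with early estradiol, and -0.78 and -0.21 with late estradiol. That of the 14 macrophage markers was -0.37 and 0.01 in sham, -0.37 and 0.95 after ovariectomy, 0.50 and 0.30 with early estradiol, and -0.77 and -0.01 with late estradiol. The array medians of the 11 endothelial markers ran from -0.16 to 0.30, those of the 8 smooth muscle and pericyte markers from -0.56 to 0.33, and those of the 5 atrial markers from -0.74 to 1.86, where early replicate 1 was highest. The 4 mesothelial markers ran from -0.31 to 0.55. Of 7 adipocyte markers on the array 3 passed the filter, and Adipoq, Lep, Plin1 and Cidec did not. Early replicate 1, the lowest array for complex I, was the second highest for fibroblast and macrophage markers and the highest for atrial markers. The fibroblast and macrophage lists were dimmer than complex I. Their median log2 signals per array ran from 7.27 to 8.52 and from 6.05 to 7.62, against 11.24 to 11.57. The median residual SD was 0.395 over all probe sets, many of them dim, and 0.163 at a mean of at least 10. The part of the markers in the complex I values was not tested.

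**Figure D5:**
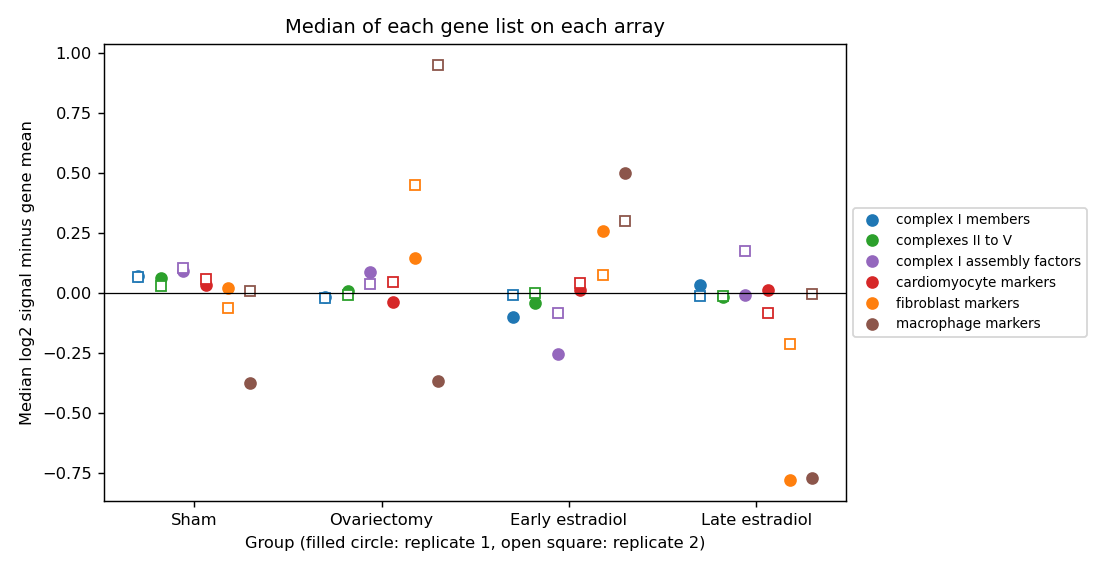
Median log2 signal of 6 gene lists on each of the 8 arrays (vertical axis, difference from each gene's mean), by group (horizontal axis), with replicate 1 filled and replicate 2 open. Complex I, complexes II to V and cardiomyocyte markers stay within 0.1 of 0, and fibroblast and macrophage markers spread from -0.78 to 0.95.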

How the data were processed

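For each array the authors deposited a table value per probe set, a MAS5 signal intensity on a linear scale, with the tool as named in the submitters' processing notes. The sources used here do not give the version, scaling target or detection calls. The 31099 probe sets included 57 controls, which were left out. Array brightness differed several-fold, so log2 values were quantile-normalized, which forces 1 distribution on all arrays and hides a shift common to most genes. Probe sets with a mean log2 signal of at least 3.69, the 40th percentile, were tested (18625). Genes came from the platform annotation, and all 36 members matched RefSeq (GRCr8) by Entrez number. All 8 arrays entered a single limma fit (version 3.58.1, R 4.3.3), which gave the 6 differences and the F test from group means, with an intensity trend and Benjamini-Hochberg adjustment over all probe sets at 0.05, two-sided. Errors are limma's standard errors, which draw on the spread of other probe sets as well as on the 4 residual degrees of freedom of each probe set. The script was tested on simulated data. Arrays of the same replicate number deviated together, for a reason the labels do not state (correlation of replicate 2 minus 1 differences across probe sets 0.28 to 0.33 in 6 pairs of groups), so the replicate number as a block was an alternative. Other alternatives were the scaling, the filter, 32 added before the log, no trend, averaging the probe sets of a gene, and leaving out each array. Named were the core subunits in comparisons with ovariectomy, the 5 members of smallest p in each comparison and the F test, Ndufa4, Ndufa4l2, Ndufab1 and, of other lists, 2 genes of smallest p and fixed regulators; other members named by whether groups overlapped were chosen after their values were seen. The members, lists and motifs were chosen with earlier results of these data known.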

Additional observations from a re-analysis of the deposited data

Results flagged for a closer look

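Ndufa3 lay on opposite sides of ovariectomy with early and late estradiol on every array. Both early arrays (11.37 and 11.28) lay below and both late arrays (11.56 and 11.54) above both ovariectomy arrays (11.50 and 11.50), and the late minus early difference was 0.23 ± 0.13. That difference did not pass (limma adjusted p = 0.987), and -0.17 was found without between-array normalization. The same pattern, in either direction, was met by 1.83% of the 18625 probe sets and by 1 of 36 members, and the late arrays cleared the ovariectomy arrays by less than the standard error of the difference.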

How the results depend on the processing

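All 16 alternatives gave 0 called members in each of the 6 comparisons and in the F test (limma, Benjamini-Hochberg), the replicate block included. Without late estradiol replicate 2 the Ndufa4l2 difference for late against ovariectomy was -2.03. Of 720 named values 26 changed sign, but many of the 720 could not change. The filters, the trend, the replicate block and leaving out an array of a group not compared do not alter a fitted difference. The median member difference moved by more than the spread of the array medians (0.04) with the scaling and with single arrays left out. Without between-array normalization it was -0.288 for ovariectomy against sham, 0.0585 for early and -0.267 for late estradiol against ovariectomy, -0.332 for late against early, -0.201 for early and -0.569 for late against sham, and 10, 33 and 36 of 36 members lay lower in early against ovariectomy, late against ovariectomy and late against early, the array brightness being left in the values. With arrays centred on their median it was -0.0192, -0.0853, 0.119 and 0.00777 for ovariectomy against sham, early against ovariectomy, late against early and late against sham. With 1 array left out, in the order of the 6 comparisons above, the median ranged over -0.0867 to -0.0551, -0.078 to 0.0166, -0.0268 to 0.0288, 0.0135 to 0.121, -0.15 to -0.103 and -0.0876 to -0.0272. Of these, the early against ovariectomy median turned to 0.0166 without early replicate 1, and the late against ovariectomy median to -0.0268 without ovariectomy replicate 2 and -0.023 without late replicate 1. Without early replicate 2, late against early was 0.1, with 8 of 36 lower, and early against sham -0.15. The cause of these changes was not tested. The replicate block left every median as it was (-0.103 for early against sham), as it must where each group holds 1 array of each number. With it, the members with an unadjusted p under 0.05 were Ndufv1 for ovariectomy against sham, Ndufa4l2, Ndufs4 and Ndufv1 for late against ovariectomy, Ndufb2, Ndufb8 and Ndufs4 for late against early, and Ndufb8 for late against sham, and the lowest adjusted p was 0.609. With 2 arrays a group the unadjusted 95% interval of a member had a median half-width of 0.34. This is not the limit of the adjusted test. Larger differences, such as 0.55 for Ndufs4 in late against ovariectomy, were not told from 0 either. Without late replicate 2, 67, 101 and 87 of all probe sets passed for late against ovariectomy, early and sham, against 0 with all arrays, and without ovariectomy replicate 1 3 passed for ovariectomy against sham and 2 for late against ovariectomy.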

Other observations

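In complexes II to V, as in complex I, 0 genes passed by limma. For late estradiol against ovariectomy the 2 genes of smallest p were Cox6a1 and Sdhc. Cox6a1, the ubiquitous form of a subunit of cytochrome c oxidase, measured 10.78 and 10.70 in sham, 10.77 and 10.88 after ovariectomy, 10.57 and 10.71 with early estradiol, and 10.23 and 10.38 with late estradiol. Both late arrays lay below all 6 others, with a difference of -0.52 ± 0.15 (limma adjusted p = 0.943). Sdhc, a membrane anchor of succinate dehydrogenase, stood at -0.44 ± 0.23, and its late and ovariectomy arrays overlapped. For late against early estradiol the 2 were Cox5a, another cytochrome c oxidase subunit, at 1.18 ± 0.41, and Cox7a1, the heart and muscle form of its subunit, at 0.55 ± 0.23 (limma adjusted p = 0.987 for both). The Cox5a probe set was dim, and its early arrays differed from each other, at 6.81 and 5.50.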
